A study of Mus musculus with 2 samples.

Results

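Matrix metalloproteinases (MMPs) and their tissue inhibitors (TIMPs) were examined in mouse embryo fibroblasts (MEFs) from wild type mice and from mice that lack Ebp1, the ErbB3 binding protein encoded by Pa2g4. Of 18193 genes with at least 1 probe set assigned to 1 symbol, 10 belong to this group: Mmp2, Mmp3, Mmp9, Mmp10, Mmp13, Mmp14, Mmp23, Timp1, Timp2 and Timp3. The members were matched by gene symbol, from a list drawn up with earlier results of these data known, and 23 probe sets carry their names. A probe set is a group of short oligonucleotides on the array that report 1 transcript. Both cultures came from embryos of day 12.5, were grown with fetal bovine serum and were harvested at passage 2. The knock out embryos carry a retroviral gene trap in an intron of Pa2g4 that came from a single ES cell clone, on a mixed C57BL/6 and 129SvEvBrd background, and the sources used here do not give the number of embryos behind each culture.

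There was 1 array per genotype, so no spread between replicates exists, no test was run, and each difference below compares these 2 RNA samples. A signal is in linear intensity units. Signals under 100 are taken as low, and a call needed 500 or more on either array together with a ratio over 2-fold. Pa2g4, the targeted gene, read 1835 in wild type against 1178 in the knock out, with all 5 of its probe sets lower in the knock out. Its signal on the array was thus reduced and not lost. The authors, however, found neither Ebp1 mRNA by RT-PCR nor Ebp1 protein by Western blot in knock out MEFs. The place of the Pa2g4 probe sets relative to the trap was not analysed here, and the source of the remaining signal was not tested. On the wild type array 57.9% and on the knock out array 57.1% of 45037 probe sets were under 100. Signals of different probe sets are not comparable as amounts of RNA, so levels are compared between genotypes only.

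MMPs are zinc endopeptidases that cut collagens and other proteins of the extracellular matrix, and are made as inactive precursors. TIMPs bind the active site of MMPs. On the surface of fibroblasts the membrane-anchored MMP14 activates the precursor of MMP2 with TIMP2 as the bridge between them, while the stromelysins MMP3 and MMP10, the collagenase MMP13 and the gelatinase MMP9 are typically induced by growth factors and cytokines.

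The group fell into 6 genes with a bright signal and 4 with a low one. Mmp2, Mmp14, Mmp23, Timp1, Timp2 and Timp3 reached 500 in both genotypes on their brightest probe set, the 1 with the highest mean log2 signal. Mmp3, Mmp9, Mmp10 and Mmp13 were under 100 on both arrays. Among the bright genes the proteases Mmp2 and Mmp23 were lower in Ebp1 knock out MEFs, while the protease Mmp14 had no uniform direction across its probe sets. The inhibitors Timp2 and Timp3 were higher on their brightest probe sets, except after scaling to a second set of spike-in controls. After scaling to the first set Timp2 was level (log2 ratio of knock out to wild type 0.01). Timp1 was nearly level on the deposited scaling.

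**Figure D1:**
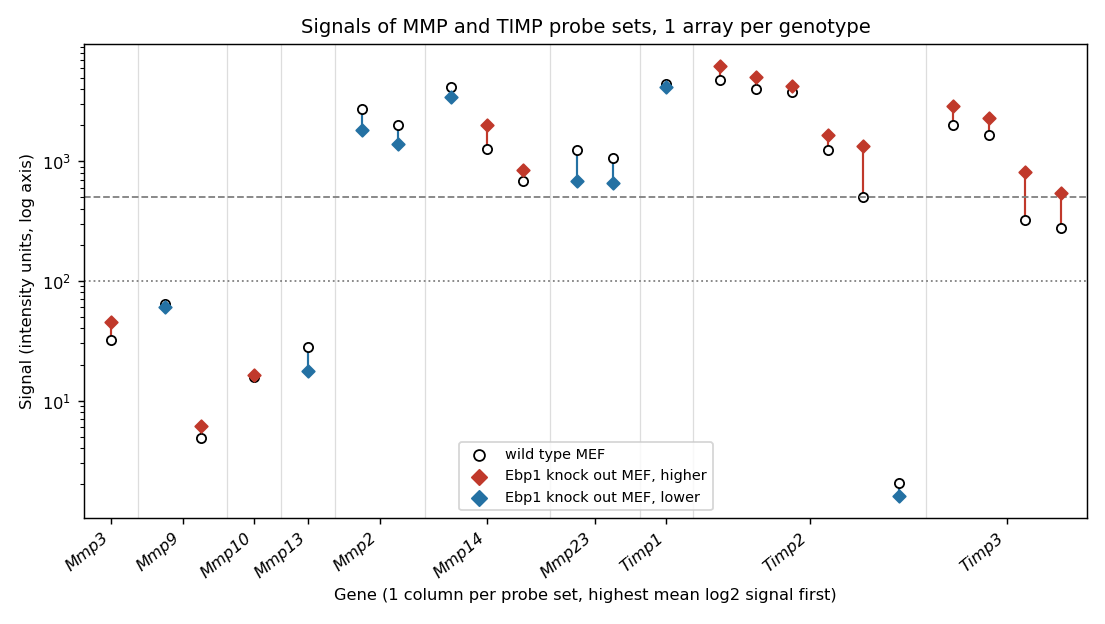
Signals of the 23 probe sets of the 10 genes on a logarithmic axis, with open circles for wild type MEFs and diamonds for Ebp1 knock out MEFs (red higher, blue lower, deposited scaling). The dotted line marks 100 and the dashed line 500 intensity units, and the probe sets of Mmp3, Mmp9, Mmp10 and Mmp13 all lie under the dotted line.

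None of the 10 genes differed over 2-fold on its brightest probe set. Among the 5014 genes that reached 500, 0.758% were over 2-fold higher and 1.06% over 2-fold lower. With a threshold of 1.5-fold, 2 members were lower, Mmp2 and Mmp23, and none was higher, against 5.11% lower and 2.99% higher among all genes that reached 500. The median log2 ratio (knock out to wild type) was -0.17 over the 6 bright members and -0.05 over all genes that reached 500.

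Mmp2, which encodes gelatinase A, the MMP that cuts denatured collagen and type IV collagen, read 2748 in wild type against 1829.6 in the knock out, a log2 ratio of -0.59. This is just past a ratio of 1.5-fold. Its other probe set had 2015 and 1388 (-0.54), so that both readings of Mmp2 gave nearly the same ratio.

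Mmp23, which encodes a membrane-bound MMP that is released from the cell when its precursor is processed, was the member furthest below 0. It had 1230.3 in wild type against 680.2 in the knock out on its brightest probe set (log2 ratio -0.85, 1.81-fold lower) and 1070.3 and 660.4 on the other (-0.70). Mmp2 and Mmp23 were lower on each of their probe sets under all 6 scalings tried. Log2 ratios of the brightest probe set ran from -1.11 to -0.59 for Mmp2 and from -1.37 to -0.83 for Mmp23. Median centring and both spike-in scalings lowered every ratio, so they could not have turned this direction.

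Mmp14, the gene of the membrane-type MMP that activates pro-MMP2, had no uniform direction. Its brightest probe set was lower in the knock out (4185 and 3445, log2 ratio -0.28), while the next was higher (1257 and 2020.5, 0.69) and so was the third (685 and 842, 0.30). The range of 0.97 between them was wider than usual for these arrays. The 287 genes with 3 probe sets that reached 500 had a median range of 0.42 and a 90th percentile of 0.96. Ratios on both sides of 0 were common, in 55.1% of these genes. With the mean over its probe sets in place of the brightest, Mmp14 turned from -0.28 to 0.23.

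Timp1, which encodes a secreted inhibitor induced by growth factors, is read by 1 probe set. It was bright and nearly level, with 4404 in wild type against 4206 in the knock out (log2 ratio -0.07).

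Timp2, the inhibitor that also takes part in MMP2 activation, was higher in the knock out on all 5 of the probe sets that reached 500 (3 of 5 after scaling to the spike-in controls and 1 of 5 with the second set of them). The brightest had 4775 and 6301 (log2 ratio 0.40). The next ones had 4029.9 and 5079.8 (0.33), 3755 and 4238 (0.17), and 1232 and 1645 (0.42). The dimmest of the 5 gave the largest difference, 506 in wild type against 1336 in the knock out (1.40, 2.64-fold higher). The remaining probe set was at background, with 2.05 and 1.59.

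Timp3, which encodes the inhibitor that stays bound to the matrix and also blocks ADAM and ADAMTS proteases, was higher on all 4 of its probe sets (2 of 4 with the second set of spike-in controls). The brighter ones had 2021 in wild type against 2890 in the knock out (log2 ratio 0.52) and 1639.8 and 2286 (0.48). The dimmer ones gave larger ratios, with 319 and 805 (1.33, 2.52-fold) and 275 and 543 (0.98, 1.98-fold, just inside the 2-fold threshold).

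These readings separate the members by how well their probe sets agree. The range of log2 ratios was 0.05 for Mmp2 and 0.16 for Mmp23, against a median of 0.27 over 1050 genes with 2 probe sets that reached 500. It was 0.85 for Timp3, against 0.50 over 103 genes with 4 such probe sets, and 1.23 for Timp2, against 0.45 over 32 genes with 5. Both ranges were above these medians but under the 90th percentiles, 1.05 and 1.25. The sign was the same on all bright probe sets of Mmp2, Mmp23, Timp2 and Timp3 under the deposited scaling, while 44.6% of the 1487 genes with at least 2 such probe sets had ratios on both sides of 0. Over all 17 member probe sets that reached 500, 2 were over 2-fold higher, 1 each of Timp2 and Timp3, and none was over 2-fold lower, against 1.64% higher and 0.942% lower of 7857 probe sets. These calls changed with the scaling. There were 3 higher and 0 lower with quantile normalization, and the same with loess. With the spike-in scaling there were 1 higher and 2 lower, and with the second one 0 higher and 4 lower. Both spike-in scalings lower every log2 ratio and so raise the number of lower calls on the whole array. The matching shares over all probe sets were not computed.

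**Figure D2:**
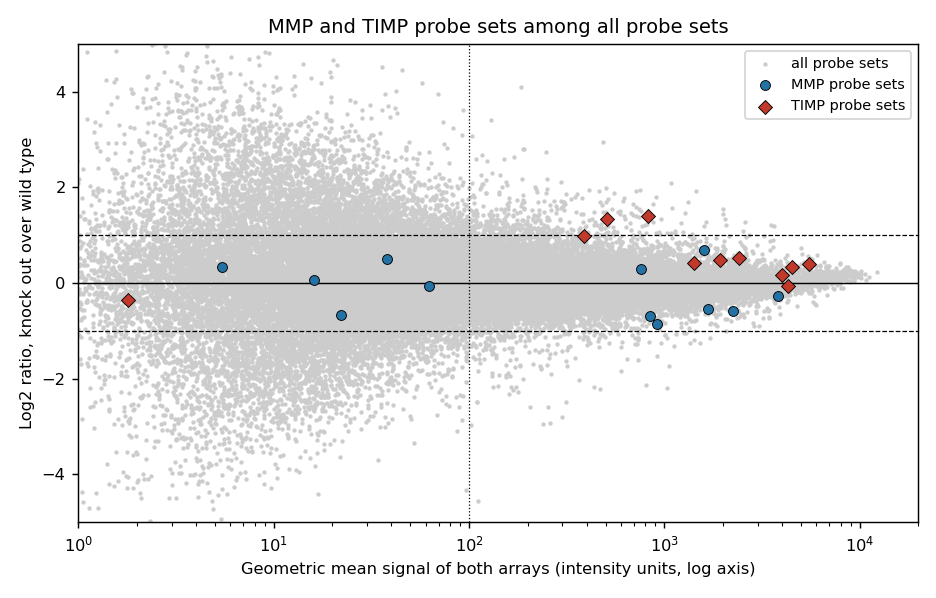
Log2 ratio (knock out to wild type) against the geometric mean signal of both arrays for 45037 probe sets (grey), of which 232 lie outside the axes, with MMP (blue circles) and TIMP (red diamonds) probe sets on top. Dashed lines mark a 2-fold ratio and the dotted line 100 intensity units, and 2 TIMP probe sets lie above the upper dashed line under the deposited scaling.

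The direction for Timp2 and Timp3 depended on how the arrays were scaled. Timp1 was below 0 under all 6 scalings, but median centring and both spike-in scalings lowered every ratio. Those scalings could thus not turn a ratio that was already below 0. In the deposited values both arrays have the same trimmed mean. The 9 control probe sets for RNA added to the hybridization read 1.31 times as high in the knock out as in wild type, and a second set of 9 for the same kind of controls 1.43 times as high. Scaling to the first set lowered every log2 ratio by 0.39, to 0.01 for Timp2 and 0.12 for Timp3, and scaling to the second, chosen after the data were seen, by 0.52, to -0.12 and -0.003. The median over all genes that reached 500 moved as well, to -0.44 and -0.57. Median centring and both spike-in scalings shift each ratio and that median alike. Under them the place of Timp2 and Timp3 above the median could not change. With quantile normalization Timp2 had 0.32 and Timp3 0.51, against a median of -0.04. With loess they had 0.34 and 0.50, against -0.04. Centring each array on its median signal lowered every log2 ratio by 0.11 and changed no direction among the 6 bright genes.

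**Figure D3:**
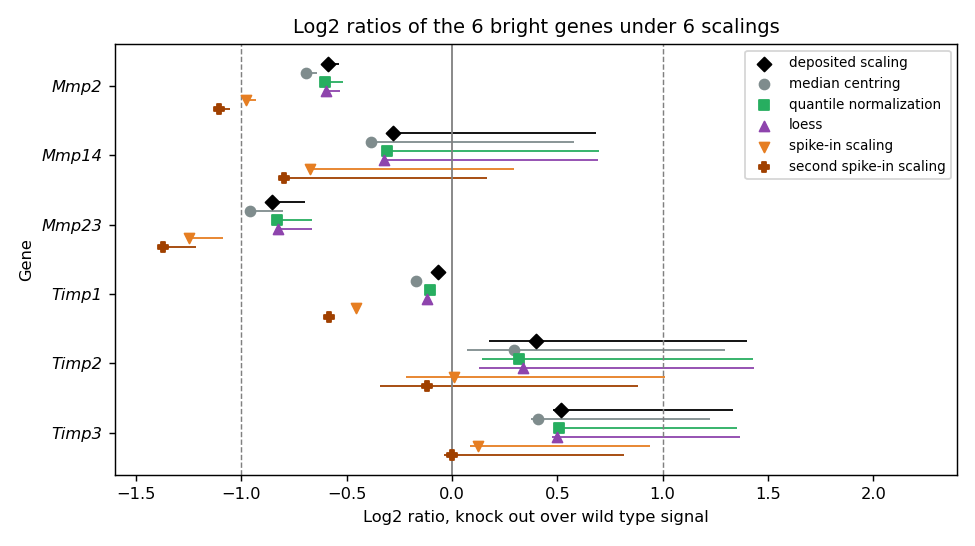
Log2 ratios (knock out to wild type) of the 6 bright genes under 6 scalings, with markers for the brightest probe set and lines for the range over all probe sets that reached 500. Dashed lines mark a 2-fold ratio. Mmp2 and Mmp23 stay left of 0 under each scaling. The brightest probe sets of Timp2 and Timp3 are right of 0 except with the second spike-in scaling. Median centring and both spike-in scalings move every ratio to the left.

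Mmp3, which encodes stromelysin-1, had signals of 32.0 in wild type against 45.6 in the knock out. Mmp10, which encodes stromelysin-2, had 15.7 and 16.5. Mmp13, the gene of the main interstitial collagenase of rodents, had 28.0 and 17.6. Mmp9, which encodes gelatinase B, had 63.7 and 60.9 on its brighter probe set and 4.84 and 6.10 on the other. All were low in both genotypes, and no fold is given because signals in this range have no reliable order. The deposited table holds no detection calls, so a low signal does not show that a transcript is absent.

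Mmp3, Mmp10 and Mmp13 lie in a run of 10 adjacent MMP genes in the RefSeq annotation of GRCm38.p6. Of these, 9 have a probe set here, and all 9 were under 100 on both arrays, the highest signal being 78.2 for Mmp8 in knock out MEFs. The neighbouring protein-coding genes reached 500 in both genotypes and were nearly level between them, with 1268 and 1306 for Dcun1d5 and 1848 and 1710.5 for Tmem123.

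Where a promoter entry exists, the promoters of the low and the bright members differ in their letters. The 3 low members with an entry, Mmp3, Mmp10 and Mmp13, all lie in the run of adjacent MMP genes, and no bright member does. A low signal and a place in that run thus cannot be told apart here. AP-1, the dimer of Fos and Jun proteins, binds TGAGTCA, read as TGACTCA on the other strand, and is known for inducing stromelysin and collagenase genes. GGGCGG, or CCGCCC on the other strand, is the GC box bound by Sp1. TATAAA, or TTTATA, is a TATA box. No matches of these motifs overlapped in the members' windows. They were sought in the 250 bases before each RefSeq start (GRCm38.p6), where 8 of the 10 members have an entry and Mmp2 and Mmp9 have none. The last 100 bases before the start are shown for 3 low members and 3 bright ones, 5′ to 3′ on the strand of the gene, with AP-1, TATA and GC box matches in capitals.
Mmp3, chr9:7445722-7445821, plus strand: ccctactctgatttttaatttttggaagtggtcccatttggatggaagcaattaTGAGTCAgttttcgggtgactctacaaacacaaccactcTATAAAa
Mmp10, chr9:7502242-7502341, plus strand: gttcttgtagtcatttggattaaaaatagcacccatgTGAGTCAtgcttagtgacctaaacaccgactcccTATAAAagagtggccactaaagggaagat
Mmp13, chr9:7272414-7272513, plus strand: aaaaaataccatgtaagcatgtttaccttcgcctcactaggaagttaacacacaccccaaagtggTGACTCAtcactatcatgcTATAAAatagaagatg
Mmp14, chr14:54431498-54431597, plus strand: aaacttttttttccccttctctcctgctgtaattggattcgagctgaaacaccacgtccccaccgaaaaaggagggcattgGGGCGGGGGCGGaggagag
Timp2, chr11:118355412-118355511, minus strand: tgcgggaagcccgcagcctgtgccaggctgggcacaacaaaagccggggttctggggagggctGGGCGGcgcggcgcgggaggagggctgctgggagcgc
Timp3, chr10:86300312-86300411, plus strand: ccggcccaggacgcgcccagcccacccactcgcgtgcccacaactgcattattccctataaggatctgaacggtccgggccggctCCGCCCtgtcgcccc

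Each of the 3 low members with an entry had 1 AP-1 match, which began 46 bases before the start in Mmp3, 63 in Mmp10 and 35 in Mmp13, and each had a TATA box between it and the start. None of the 5 bright members with an entry had either motif in its window. A GC box was found in Mmp14, Timp1, Timp2 and Timp3, and none of the 3 motifs in either window of Mmp23. Over all 32851 windows, 4.46% held the AP-1 motif, 12.4% the TATA box and 32.7% the GC box. The share of G and C was 37.2 to 40.4% in the low members and 54.4 to 68.0% in the bright ones, against a median of 52.4%. Of the 10 genes in the run, 7 had an AP-1 match in at least 1 window. A match of letters does not show that a factor binds there.

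**Figure D4:**
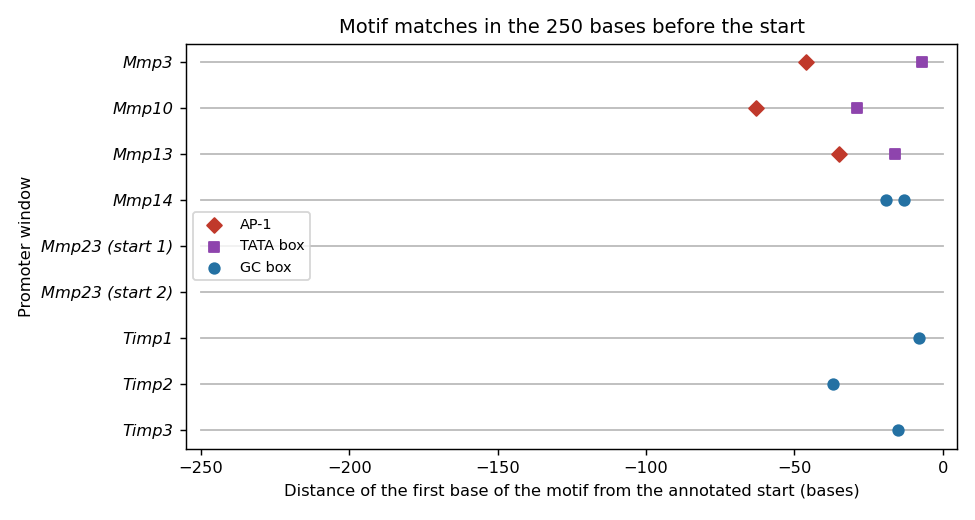
Positions of AP-1 (red diamonds), TATA box (purple squares) and GC box (blue circles) matches in the 250 bases before the annotated starts of 8 members, with the distance in bases from the start. The AP-1 and TATA matches lie in Mmp3, Mmp10 and Mmp13 and the GC boxes in Mmp14, Timp1, Timp2 and Timp3.

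Of the AP-1 genes, Fosl1, which encodes Fra-1, had 315 in wild type against 695 in the knock out (log2 ratio 1.14). On the deposited scaling it was the only gene over 2-fold apart among 9 bright transcription factors that act on MMP promoters. The lowest log2 ratio of Fosl1 over the 6 scalings was 0.62, which is within 2-fold. Jun was 656 and 1064 on its brighter probe set (0.70, above 0 under all 6 scalings), and its other probe set had a log2 ratio of 0.10 on the deposited scaling. Jund (3179 and 2629.7, -0.27) and Fosl2 (1706 and 1714, 0.01, below 0 under some scalings) were within 2-fold. The median of these 9 was -0.04.

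The rest of the MMP family was dim. Counts of higher and lower genes in this and the following lists are on the deposited scaling. Of 16 other MMP genes 11 were measured, none reached 500, and 8 were under 100 on both arrays. Mmp16, a membrane-type MMP, had 313 and 334, Mmp11, known as stromelysin-3, had 279 and 228, and the membrane-anchored Mmp17 had 157 and 161.

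Among 9 other genes of metalloproteinase inhibitors and modulators, 3 reached 500 and all 3 were lower in knock out MEFs, with a median log2 ratio of -0.83. Reck, a membrane-anchored protein that inhibits MMP14, MMP2 and MMP9, had 717 and 402 (-0.83), in the opposite direction to Timp2 and Timp3. Sfrp1, a secreted Wnt antagonist, was the 1 gene over 2-fold lower (1008 and 218, -2.21), and Pcolce, an enhancer of procollagen processing, was close to level (6905 and 6441, -0.10).

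Genes that activate MMP precursors or hold them at the cell surface went both ways. Of 19 genes 9 reached 500, 4 of them higher and 5 lower, with a median of -0.02. Plaur, which encodes the urokinase receptor, was 419 and 1128 (1.43) and Plat, which encodes tissue plasminogen activator, was 989 and 467 (-1.08). Plau, the gene of urokinase itself, was under 100 on both arrays (48.4 and 73.3). Furin, the protease that removes the propeptide of membrane-type MMPs, was 941 and 861 (-0.13), and the brightest of the list were Itgav (5614 and 5543, -0.02) and Cav1 (4483 and 6602, 0.56).

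The ADAM and ADAMTS proteases, several of them targets of TIMP3, showed no call either. Of 26 measured genes 11 reached 500, 5 higher and 6 lower, with a median of -0.07 and none over 2-fold apart. The genes of the list with the highest mean signal were Adam9 (3358 and 3204, -0.07) and the aggrecanase gene Adamts5 (3315 and 4059, 0.29, below 0 with spike-in scaling). Adam10 and Adam17, sheddases of membrane-bound growth factors and cytokines, were lower (2914 and 1670.4, -0.80, and 638 and 415, -0.62). In a list of serpins, the family that holds the inhibitors of plasminogen activators and plasmin, 3 of 5 measured genes reached 500 and none was over 2-fold apart. The brightest were Serpinh1, which encodes a collagen chaperone (0.12, below 0 under some scalings), and Serpinf1, which encodes a serpin without known protease inhibition (-0.15), so neither is an inhibitor of the plasminogen system. Serpinf2, which encodes the plasmin inhibitor, had 117 and 113. Furin, Plau, Jun, Serpinf2, Adgre1, Cdh1, Adam10, Adam17, Mmp17, Mmp8 and the genes beside the MMP run were named after their values were seen.

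The cultures carried the markers of fibroblasts, with all 9 measured markers over 100 on both arrays. On the deposited scaling 4 of them were higher and 5 lower in the knock out, with Pdgfra over 2-fold lower (506 and 201). Of 8 measured markers of cartilage and bone 1 reached 500, Col2a1 (514 and 781). Of 7 neural markers 1 did, Map2 (840 and 1059), and no muscle or endothelial marker did. Of 9 markers of macrophages, which are known for MMP9, 6 were under 100 on both arrays, while Csf1r (366 and 385), Lyz2 (357 and 235) and Adgre1 (146 and 154) were over 100 on both. The summed signal of the 9 was 1092 in wild type against 968 in the knock out. Of 7 epithelial markers, 4 were under 100 on both arrays, among them Cdh1 (11.5 and 19.5). All 7 read higher in the knock out on the deposited scaling, most of them at low signal. At least 100 was reached by 1 of them in wild type and by 3 in the knock out. The summed signal of the 7 was 488 in wild type against 1938 in the knock out, mostly from Epcam (174 and 1350.5), and Krt19 had 88.0 and 197. The part of these cells in the values of the MMP and TIMP genes was not tested. In RNA from whole cultures, fewer cells of a type and less RNA per cell cannot be told apart.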

How the data were processed

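RNA from 1 wild type and 1 Ebp1 knock out MEF culture had been hybridized to an Affymetrix array each. The deposited values are linear signal intensity values per probe set, which the authors made with MAS5 and brought to 1 target intensity per array. The methods name a human array type, whereas the identifiers match a mouse array. The 64 control probe sets were set aside, leaving 45037, of which 34945 had 1 symbol, 932 several and 9160 none here. Symbols were updated by Entrez identifier to GRCm38.p6. All probe sets of each member are given, and the minimum of 500 and the 2-fold threshold are those of the methods, without their p-value. No test was possible with 1 array per genotype.

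The members and gene lists were chosen with earlier results of these data known. All members are named, and each other list is represented by at most 4 called genes and the 2 genes of highest mean signal, while cell type markers are given mainly as sums. Alternatives tried were scaling by the median, by quantiles, by loess (fraction 0.3) and by spike-in controls, raised or added signals, other minimum signals and thresholds, the mean over probe sets, and leaving out the suffixes _x_at and _s_at. Steps were tested on simulated data. Promoter sequences were taken from RefSeq. Loess came from statsmodels 0.14.6 and figures from matplotlib 3.10.9, under Python 3.11.15 with pandas 2.3.3 and numpy 2.4.6.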

Additional observations from a re-analysis of the deposited data

How the results depend on the processing

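The second spike-in scaling was a choice made after seeing the data. Changes of more than 1.5-fold in a ratio, or 1.5 times in a count, are counted as moved. No member was over 2-fold apart, but 1 was with spike-in scaling (Mmp23, lower), 2 with the second spike-in scaling (Mmp2 and Mmp23, lower) and 2 at a threshold of 1.5-fold. The 2 member probe sets over 2-fold, both higher, became 3 with quantile normalization and with loess, all higher. They were 3 with the spike-in scaling (1 higher, 2 lower) and 4 with the second spike-in scaling, all lower. They were 1 with signals raised to 500, with a minimum of 1000 or with 500 on both arrays. A threshold of 1.5-fold gave 7 (4 higher, 3 lower) and 3-fold gave 0. Of 60 log2 ratios of the 6 bright members under 10 alternatives none moved, but many of them could not have. The spike-in scalings changed every ratio by 1.31-fold and 1.43-fold, and median centring by less. Raising signals to 100 or 500 and leaving out the suffixes left all 6 values unchanged. Signs changed for 3 of the 60. These were Timp2 (-0.12) and Timp3 (-0.003) with the second spike-in scaling and Mmp14 (0.23) with the mean over its probe sets. The median over the bright members, -0.17, was 0.08 with that mean and -0.69 with the second spike-in scaling. Scalings shift all ratios, and other minimums and thresholds change the counts by construction. No paired analysis was possible because each genotype has only 1 array. For Mmp14 the cause was not tested. Low signal limits Mmp3, Mmp9, Mmp10 and Mmp13.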

Other observations

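The matrix proteins that MMPs cut were mostly bright. Of 25 genes of matrix substrates 22 reached 500, 8 of them higher and 14 lower in Ebp1 knock out MEFs, with a median log2 ratio of -0.19 (-0.05 over all genes that reached 500). The 3 over 2-fold apart were all lower: Lum, which encodes lumican (619 and 103, -2.58), Dcn, which encodes decorin (1275 and 419, -1.61), and Lama4, which encodes a laminin chain (1113 and 372, -1.58). The genes of the list with the highest mean signal were Sparc (9899 and 11335, 0.20) and Col1a2 (8374 and 9997, 0.26). Their brightest probe sets were above 0 under the deposited scaling and below 0 with spike-in scaling. The 3 bright probe sets of Col1a2 ranged from -0.33 to 0.26 under the deposited scaling, so its direction was not uniform.

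A list of 20 genes held cytokines, growth factors and receptors that act on MMP expression, and the enzyme gene Ptgs2. Of the 20 genes 11 reached 500, with a median log2 ratio of -0.34. Of these, 3 were over 2-fold higher and 2 over 2-fold lower. Ptgs2, which encodes cyclooxygenase-2, was 1172 and 3418 (1.54), and the EGF receptor ligand gene Ereg was 339 and 774 (1.19). Pdgfra, a receptor gene for platelet-derived growth factors, was 506 and 201 (-1.33), and Tgfb1 was 606 and 271 (-1.16). The remaining gene over 2-fold higher, Hbegf, was 645 and 1355 (1.07), named after its values were seen. The genes with the highest mean signal were Tgfb3 (4537 and 3767, -0.27) and Pdgfrb (3098 and 1952, -0.67).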
